A study of Mus musculus with 5 samples.

Results

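The genes described here encode 5 receptor chains, Il6ra, Il6st, Il27ra, Il10ra and Il10rb, through which T cells receive interleukin-6, interleukin-27 and interleukin-10. They were listed by symbol and are 5 of the 19937 genes measured. Each was read by 1 probe set that the array's annotation gives to that gene alone, so no choice between probe sets arose for them. Affymetrix arrays measured expression in CD45+CD3+CD4+ T cells of low CD44, isolated from mouse colonic lamina propria, the tissue layer under the gut epithelium. The labels of both genotypes name a floxed Cnb1 gene (symbol Ppp3r1), which encodes the regulatory subunit of the phosphatase calcineurin. Conditional mice (CD4cre/Cnb1flox, 3 arrays) also carry a Cre recombinase driven by CD4, whereas control mice (labelled WT and CD4neg/Cnb1flox, 2 arrays) have no Cre by that label, so an effect of Cre itself and of the deletion cannot be told apart. CD4-driven Cre acts from a thymic stage onward and is not limited to CD4 T cells. The sources used here give no age, strain or treatment of the mice.

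Il6st encodes gp130, the shared signalling chain of the interleukin-6 family, which has no specificity of its own. Il6ra encodes the chain that binds interleukin-6 and then recruits gp130, and Il27ra encodes the chain that pairs with gp130 to receive interleukin-27. Il10ra binds interleukin-10 and signals through JAK1 and STAT3, and Il10rb is its accessory chain, shared with the receptors for interleukin-22 and type III interferons. In CD4 T cells interleukin-6 favours Th17 over regulatory differentiation, naive cells carry much of its receptor, and interleukin-27 and interleukin-10 restrain inflammation in the gut.

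The chains fell into 3 patterns. Il6ra and Il6st read lower on every conditional array than on either control array, by -1.72 and -1.43 on the log2 scale. Il27ra and Il10ra read, on every conditional array, above control replicate 1 and below control replicate 2. Il10rb spanned 0.54 log2 units over all arrays.

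The 250 bases before the gene start are given here for Il6ra and Il6st, from RefSeq (GRCm38.p6). These are the 2 of the 5 chains with a promoter in the table used. Il6ra lies on the minus strand, at chr3:89913197-89913446, and Il6st on the plus strand, at chr13:112463820-112464069. Both are written 5′ to 3′ in the direction of transcription.
Il6ra: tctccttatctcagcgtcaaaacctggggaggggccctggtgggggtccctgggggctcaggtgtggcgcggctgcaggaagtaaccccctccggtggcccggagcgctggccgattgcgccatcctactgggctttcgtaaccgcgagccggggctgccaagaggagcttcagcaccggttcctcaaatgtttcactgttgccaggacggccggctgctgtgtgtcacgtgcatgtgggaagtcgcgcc
Il6st: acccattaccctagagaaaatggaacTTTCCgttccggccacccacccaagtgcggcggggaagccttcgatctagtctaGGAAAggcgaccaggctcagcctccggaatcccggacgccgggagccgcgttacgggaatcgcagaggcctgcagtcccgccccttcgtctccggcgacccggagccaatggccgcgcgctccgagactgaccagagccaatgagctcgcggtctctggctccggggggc

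Capitals mark matches, on either strand, to GGAAA, the core bound by NFAT factors. Il6st held 2 such matches, which start 224 and 170 bases before the gene start, and Il6ra held 0. GGAAA occurs in 55.6% of the 32851 promoters of the same length in the table. Neither promoter held TTCNNNGAA, the STAT element (7.02% of all), or TGANTCA, the AP-1 element (6.75%). The motifs searched do not overlap one another in these windows. These matches describe the letters only. GC content was 65.2% for Il6ra and 66% for Il6st, against a median of 52.4% over the table.

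Values are log2 signals made by the authors with RMA, which normalizes all arrays together, so differences below are on the log2 scale and a difference of 1 is a doubling. Medians of the arrays over all probe sets ranged from 7.12 to 7.23. The targeted gene Ppp3r1 differed by -0.05 ± 0.159 (SE, adjusted p = 0.927), and whether its probe set covers the deleted part is not known here. The labels do not say whether arrays came from separate mice or from pools, so the p-values reflect only the scatter of these 5 samples, possibly a technical one. The stromal gene Dcn read 11.9 to 12.79 on the conditional arrays and 13.2 and 12.8 on the controls. Its control mean was at the 99.95th percentile of all genes. Values below are therefore levels of the sorted samples, not of T cells alone. The controls differed from each other. The 9 measured T cell markers of 10 listed (Cd3e and Cd4 among them) had a mean level of 8.64 on control replicate 1, 11.40 on control replicate 2 and 11.21 to 11.49 on the conditional arrays. Epithelial markers (10 of 10) averaged 10.15 on control replicate 1, 8.30 on control replicate 2 and 7.44 to 8.18 on the conditional arrays, and stromal and endothelial markers (9 of 9) averaged 10.78, 9.33 and 8.68 to 9.59. Naive T cell markers (8 of 10) averaged 11.53 on control replicate 2, 9.27 on control replicate 1 and 10.19 to 10.39 on the conditional arrays. The chains are therefore compared with both controls and with each alone.

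Il6ra, the interleukin-6 binding chain, read 8.46, 8.35 and 7.85 in conditional replicates 1, 2 and 3, and 9.78 and 10.11 in control replicates 1 and 2. All conditional values lay below both controls, and the gap between the controls was 0.33. The means were 8.22 ± 0.321 (SD, n = 3) and 9.94 ± 0.231 (SD, n = 2), a 3.30-fold lower level in the conditional samples. The difference was -1.72 ± 0.227 (SE, 95% confidence interval from -2.31 to -1.14), with an adjusted p of 0.0672 in limma, which missed the threshold of 0.05. It was the 94th lowest difference and had the 168th smallest p of 19937 genes.

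Il6st, the gp130 chain, read 10.08, 9.97 and 9.20 in the conditional replicates and 11.30 and 11.07 in the controls. Again the groups did not overlap, and conditional replicate 3 was the lowest of the 5 arrays, as it was for Il6ra. The means were 9.75 ± 0.482 (SD, n = 3) and 11.18 ± 0.162 (SD, n = 2), a 2.70-fold lower level. The difference was -1.43 ± 0.299 (SE, 95% confidence interval from -2.20 to -0.67; limma, adjusted p = 0.139), which did not pass.

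**Figure D1:**
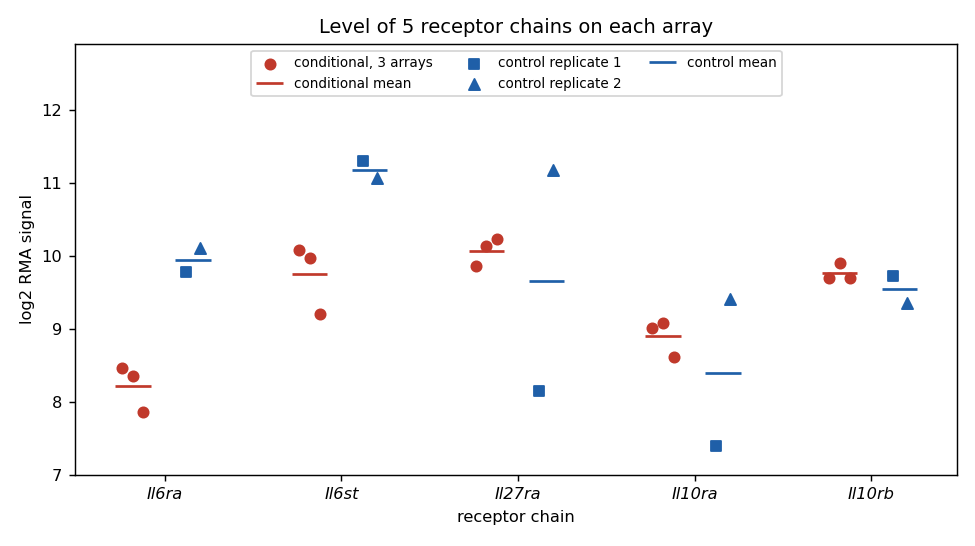
Log2 RMA signal of each receptor chain on each array, with conditional arrays as red circles, control replicate 1 as a blue square, control replicate 2 as a blue triangle and horizontal lines at the group means. For Il6ra and Il6st all 3 conditional values lie below both controls, for Il27ra and Il10ra the conditional values lie between the controls, and for Il10rb the groups overlap.

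Il27ra, the interleukin-27 binding chain, read 9.86, 10.14 and 10.23 in the conditional replicates. The controls read 8.14 and 11.18, so the conditional values lay between them. The control gap of 3.04 was exceeded by 0.592% of all genes. The difference of 0.42 ± 0.880 (SE, 95% confidence interval from -1.83 to 2.67; limma, adjusted p = 0.894) did not pass, and its interval holds changes in either direction.

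Il10ra, the interleukin-10 binding chain, read 9.004, 9.08 and 8.61 in the conditional replicates and 7.39 and 9.41 in the controls. It had the same order as Il27ra, with the conditional values between a low control replicate 1 and a high control replicate 2. The difference was 0.50 ± 0.603 (SE, 95% confidence interval from -1.04 to 2.04; limma, adjusted p = 0.784). The control gap was 2.02, a size that 3.58% of genes exceeded.

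Il10rb, the accessory chain, read 9.70, 9.90 and 9.69 in the conditional replicates and 9.72 and 9.36 in the controls. The groups overlapped, and the range over all arrays was 0.54, the smallest of the 5 chains. The difference was 0.22 ± 0.158 (SE, 95% confidence interval from -0.18 to 0.63; limma, adjusted p = 0.586).

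Of the 5 chains, 0 passed an adjusted p of 0.05 in limma, where 0.416% of all genes (83 of 19937) passed. At an adjusted p of 0.10, Il6ra passed, with 1.88% of all genes. At an unadjusted p of 0.05, Il6ra and Il6st passed, with 14.5% of all genes. Groups that did not overlap were found for 2 of 5 chains, both lower in the conditional samples. Over all genes the share was 30.5% in either direction and 13.1% in that direction. The median difference of the 5 chains was 0.22, and that of all genes 0.03.

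Against control replicate 1 alone, Il6ra differed by -1.56 (limma, adjusted p = 0.00731) and Il6st by -1.55 (adjusted p = 0.0233). Against control replicate 2 alone, they differed by -1.89 (limma, adjusted p = 0.0159) and -1.32 (adjusted p = 0.0958). The direction was therefore common to both controls, while the call for Il6st was not. For Il27ra the 2 fits gave opposite calls, 1.93 against control replicate 1 (adjusted p = 0.00184) and -1.10 against control replicate 2 (adjusted p = 0.0267). Il10ra also turned, from 1.51 (limma, adjusted p = 0.00468) to -0.51 (adjusted p = 0.254). Il10rb was at 0.04 and 0.41 and passed in neither.

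These fits rest on 1 control array each, which is assumed to vary like the conditional arrays, and both share the same conditional arrays. Against control replicate 1 alone 27.5% of all genes passed, and against control replicate 2 alone 6.1%. The 4 chains that passed in the former and the 2 in the latter are to be read against those shares. Leaving out any 1 conditional array left the Il6ra difference between -1.84 and -1.54 and the Il6st difference between -1.60 and -1.16, with 0 genes of any kind past the threshold in limma. At an unadjusted p of 0.05 those fits called 1417 to 2037 genes, 2 of the 5 chains in each.

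**Figure D2:**
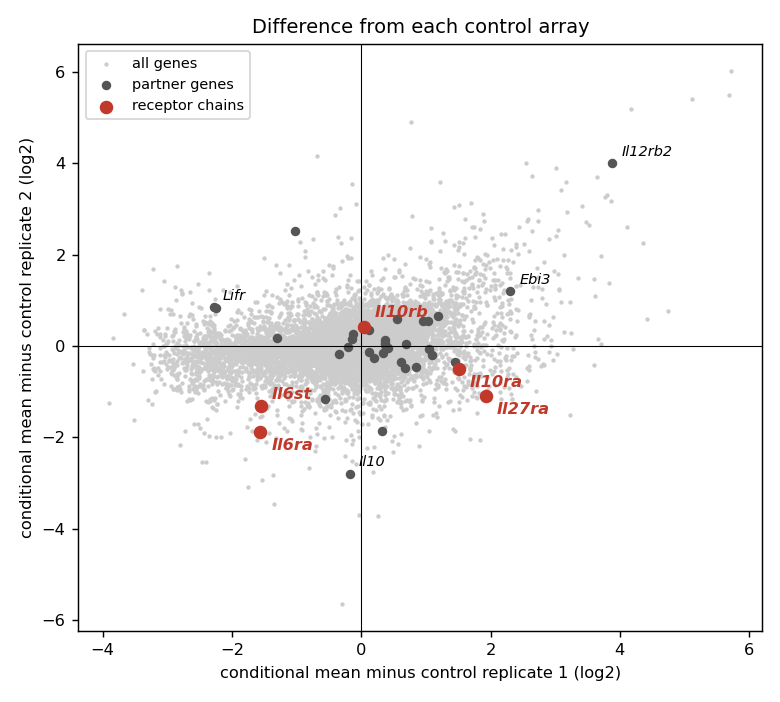
Mean of the 3 conditional arrays minus control replicate 1 (horizontal axis) and minus control replicate 2 (vertical axis), both in log2 units, for all genes in grey, the named partner genes in black and the receptor chains in red. Il6ra and Il6st lie in the lower left, at -1.56 and -1.55 horizontally, Il27ra and Il10ra lie at the lower right, and Il10rb lies near 0 on the horizontal axis.

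Whether chains differed from each other in their change was tested for all 10 pairs with an exact two-sided permutation test over the 5 arrays, in which the smallest possible p is 0.1. Il6ra differed from Il10rb by -1.95 in its change, and Il6st differed from Il10rb by -1.66, both at p = 0.1 in the exact permutation test (0.2 adjusted over the 10 pairs). Il6ra and Il10ra (-2.23), Il6st and Il10ra (-1.93) and Il6ra and Il27ra (-2.14) were also at that smallest p. The changes of Il6ra and Il6st differed by -0.29 (exact permutation p = 0.3) and those of Il27ra and Il10ra by -0.09 (exact permutation p = 0.8). No pair could pass 0.05 in this design, so these values show neither that any chains act alike nor that any changed by unequal amounts.

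Over the 5 arrays, which share their groups, Pearson's r was 0.96 between Il6ra and Il6st and 0.94 between Il27ra and Il10ra. Across those 2 sets r lay between -0.32 and -0.11, and r of Il10rb with the other chains lay between -0.64 and -0.32. Among 9545 other genes above the median level, without small RNAs, variable segments of antigen receptors and predicted or unnamed genes, the patterns most like Il6ra were those of Actn1 (r = 0.999), an actin crosslinker gene, Ppie and Arc. Actn1 read 9.48, 9.32 and 8.86 in the conditional replicates and 10.84 and 11.27 in the controls. Il6st was most like Nuak2, Clpp and Tubb2b (r = 0.996, 0.995 and 0.994), Il27ra most like Arhgap25, Smc4 and Ms4a6b, Il10ra most like Snhg5, Psmb9 and Nrros, and Il10rb most like Dmxl1, Rtraf and Gdap2. With so few arrays many genes come close. An r above 0.95 was reached by 141 genes for Il6ra, 111 for Il6st, 463 for Il27ra, 170 for Il10ra and 74 for Il10rb.

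The marker lists moved with the chains in part. Il27ra and Il10ra were lowest on control replicate 1, where T cell markers were also lowest. Both were highest on control replicate 2, where the mean of the naive markers was highest, but that list was not uniform. Dapl1 read 11.64 there and 5.88 to 6.29 on the other arrays, and Lef1, Klf2 and S1pr1 were also highest there, at 11.50, 11.27 and 11.33. In contrast Il7r, at 11.49, lay below the conditional arrays, and Ccr7, Bach2 and Satb1 lay within their range. In such bulk samples fewer cells of a type and less RNA per cell cannot be told apart, and the part of these markers in the results was not tested.

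For Il6ra, the difference was -1.56 against control replicate 1, where the means of the T cell and naive markers were both below the conditional range. It was -1.89 against control replicate 2, where the T cell mean was within the conditional range and the naive mean above it. In the fit of all 5 arrays, 10 of 10 epithelial and 6 of 9 stromal and endothelial markers moved in the same direction as Il6ra and Il6st. That direction was found for 8793 of 19937 genes. The endothelial genes Pecam1, Cdh5 and Kdr went the other way in that fit, at 0.43, 0.61 and 0.05. Conditional replicate 3 was the lowest array for both chains and for the means of both lists. Without overlap 5 of 10 epithelial and 5 of 9 stromal and endothelial markers were lower in the conditional samples, against 13.1% of all genes. List medians were -1.44 and -1.60. Krt20 and Cdhr5, epithelial genes, fell by 1.67 and by 1.41 (limma, adjusted p = 0.0327 and 0.0366). Against control replicate 1 alone the epithelial and stromal list medians were -2.54 and -2.38, and against control replicate 2 alone -0.37 and -0.47. In the latter comparison Krt20 and Cdhr5 differed by -1.61 and -1.51, Lgals4 by -1.16, Col1a1 by -0.85 and Col3a1 by -0.88. Of the other epithelial markers, Vil1 and Krt19 were at -0.65 and -0.61 there. Krt8, Cdh1 and Muc2 were at -0.14, -0.05 and -0.02, and Epcam and Krt18 at 0.19 and 1.001. Il6ra and Il6st differed by -1.89 and -1.32 there. The stromal genes Col1a1, Col1a2, Col3a1, Dcn and Lum lay above every conditional array on control replicate 2, while the endothelial genes Cdh5 and Kdr lay below, at 6.47 and 6.33. B cell markers (5 of 6) averaged 8.26 to 8.79 on the conditional arrays and 9.14 and 9.57 on the controls, with 3 of 5 lower without overlap (13.1% of all genes). The part of these lists in the Il6ra and Il6st differences was not tested.

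Macrophage markers (9 of 10) averaged 7.54 to 8.70 on the conditional arrays and 6.76 and 6.90 on the controls, and neutrophil markers (5 of 5) averaged 6.38 to 6.88 and then 5.79 and 6.04. Of the neutrophil markers 4 of 5 were higher in the conditional samples (11144 of 19937 genes), while Ly6g went the other way, at -0.64. The mean of the neutrophil list was below the array medians of 7.12 to 7.23 on every array. Among 5 markers of natural killer and innate lymphoid cells the median difference was 0.08. Tyrobp rose by 1.88 (limma, adjusted p = 0.0269) and Klrd1 was at 3.24 (adjusted p = 0.0501), while Ncr1, Klrb1c and Eomes were at 0.03, 0.05 and 0.08.

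**Figure D3:**
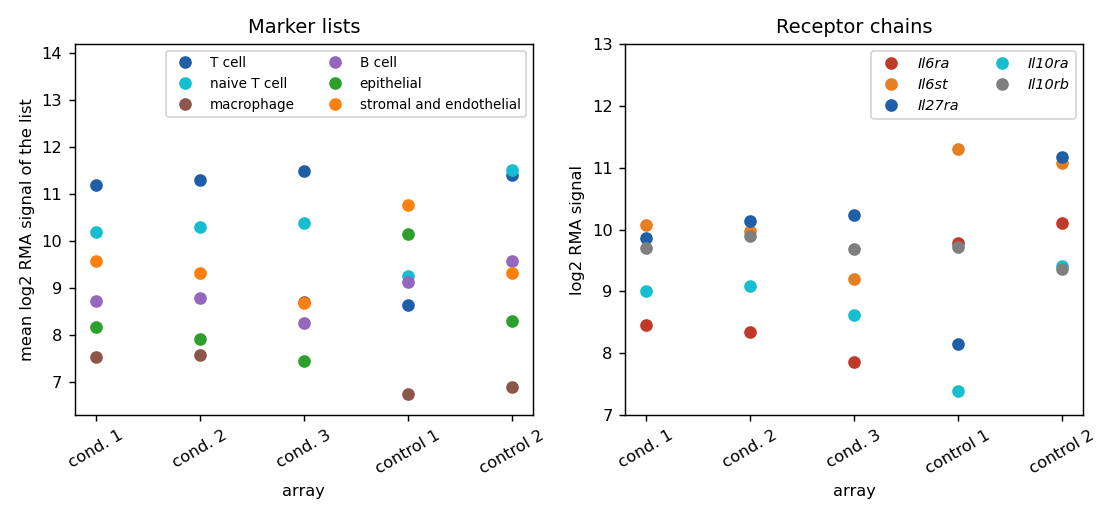
Left, mean log2 RMA signal of 6 marker lists on each array. Right, log2 RMA signal of the 5 receptor chains on the same arrays, with 3 conditional arrays followed by 2 controls. Control replicate 1 is low for T cell markers, Il27ra and Il10ra, control replicate 2 is high for naive markers, Il27ra and Il10ra, and Il6ra and Il6st are high on both.

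The ligands of these receptors were read from a list of 17 genes, of which 14 were measured. In limma 0 of 14 passed (0.416% of all genes), and 1 of 14 at an unadjusted p of 0.05 (14.5% of all genes). Ebi3, the subunit shared by interleukin-27 and interleukin-35, read 9.36, 9.37 and 9.41 in the conditional replicates and 7.08 and 8.19 in the controls. Its conditional values lay above both controls (1.75 ± 0.332, SE; limma, adjusted p = 0.119). Il27, which encodes the other subunit, differed by 0.18 (-0.04 against control replicate 2). Il10 read 8.14, 8.35 and 9.19 in the conditional replicates and 8.74 and 11.36 in the controls, so its difference of -1.49 (limma, adjusted p = 0.481) came with a control gap larger than itself. It was at -0.18 against control replicate 1 and at -2.80 against control replicate 2 (limma, adjusted p = 0.0192). Il6 read 7.42, 7.84 and 8.33 in the conditional replicates and 8.89 and 5.34 in the controls, with the controls on either side of all conditional values. Clcf1 and Osm, further gp130 cytokines, differed by 0.49 and 0.44, and turned to -0.07 and -0.20 against control replicate 2. Il11 and Lif were at 0.01 and -0.01, with either sign depending on the control. The median over the list was 0.18, and 4 of 14 had groups that did not overlap, a share close to the 30.5% of all genes.

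Chains related to gp130 included the 1 partner gene that passed in limma, 1 of 9 measured chains, against 0.416% of all genes. At an unadjusted p of 0.05, 3 of 9 passed (14.5% of all genes). Il12rb2, the gp130-like signalling chain of the interleukin-12 receptor, read 11.44, 11.66 and 11.74 in the conditional replicates and 7.73 and 7.61 in the controls. It rose by 3.94 ± 0.133 (SE; limma, adjusted p = 0.0112), at 3.89 and 4.001 against the controls taken singly. Without 1 conditional array its adjusted p was between 0.0723 and 0.267. Its partner chain Il12rb1 was at 0.20 (-0.45 against control replicate 2). Lifr and Osmr, chains that pair with gp130 for leukemia inhibitory factor and oncostatin M, differed by -0.71 each. They read 9.94 and 11.09 on control replicate 1, where epithelial and stromal markers were highest, and 6.81 and 7.997 on control replicate 2. Cntfr was at -0.56 and turned to 0.18 against control replicate 2. Of 9 measured chains 4 had groups that did not overlap, 3 higher and 1 lower (17.4% and 13.1% of all genes), with a median of 0.03.

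Class II cytokine receptor chains, the family of Il10ra and Il10rb, gave 0 of 9 past the threshold in limma (0.416% of all genes). At an unadjusted p of 0.05, 3 of 9 passed (14.5% of all genes), and the median was 0.08. Groups did not overlap for 3 of 9 that were higher and 1 that was lower, against 17.4% and 13.1% of all genes. Ifngr2, the accessory chain of the interferon-gamma receptor, read 9.995, 9.98 and 9.88 in the conditional replicates and 10.51 and 11.11 in the controls. Its conditional values lay below both controls (-0.86 ± 0.201, SE; limma, adjusted p = 0.166). Ifngr1, the binding chain of the same receptor, named here after its values were seen, lay above both controls, at 0.71 (limma, adjusted p = 0.0809), as did Il22ra2, also so named, at 0.57 (adjusted p = 0.113), and Ifnar1, at 0.24. Il20rb was at 0.19 (0.37 and 0.02 against the controls taken singly) and Il22ra1, the chain that pairs with Il10rb for interleukin-22, at -0.03. Other probe sets of Il20rb gave 0.79 and 0.48, and the other one of Il22ra1 gave -1.02.

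Of the kinases and STAT factors below the receptors, 0 of 4 measured genes passed in limma, where 0.416% of all genes passed. At an unadjusted p of 0.05, 2 of 4 passed (14.5% of all genes), and the median was 0.47. Groups did not overlap for 2 of 4, both higher, against 17.4% of all genes. Stat3, the main transducer of both gp130 and the interleukin-10 receptor, read 12.33, 12.28 and 12.18 in the conditional replicates and 11.70 and 11.68 in the controls. The groups did not overlap (0.57 ± 0.106, SE; limma, adjusted p = 0.116). Jak2 was at 0.93 (limma, adjusted p = 0.126), also without overlap, and Jak1 and Tyk2, the kinases attached to the interleukin-10 receptor chains, at 0.09 and 0.36. Against control replicate 2 Jak1 was at -0.14 and Tyk2 at 0.04, and Tyk2 was at 0.69 against control replicate 1, so neither lay clear of the controls.

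Among brakes and sheddases 0 of 10 passed in limma (0.416% of all genes). At an unadjusted p of 0.05, 1 of 10 passed (14.5% of all genes), and the median was 0.16. Groups did not overlap for 3 of 10 that were higher and 1 that was lower, against 17.4% and 13.1% of all genes. Socs3, which binds gp130 and stops its signal, read 10.11, 10.02 and 9.88 in the conditional replicates and 10.35 and 10.18 in the controls (-0.26; limma, adjusted p = 0.433). Its conditional values lay below both controls, which made it the 1 lower gene of that count. Its other probe set gave -0.28. Socs1 was at 0.10 (-0.48 against control replicate 2). Adam10 and Adam17, proteases that shed the interleukin-6 receptor from the cell surface, were at 0.07 and 0.23, and Adam10 was at -0.12 against control replicate 1. Ptpn11, which encodes the phosphatase SHP2 recruited by gp130, was at -0.11.

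Genes that STAT3 is known to act on in T cells gave 0 of 11 past the threshold in limma (0.416% of all genes). At an unadjusted p of 0.05, 3 of 11 passed (14.5% of all genes). The list median was 0.14, at 0.61 against control replicate 1 and -0.35 against control replicate 2. Pim1, a survival kinase, read 12.28, 12.21 and 12.21 in the conditional replicates and 11.27 and 11.68 in the controls (0.76; limma, adjusted p = 0.130). Prdm1, which encodes Blimp-1, read 9.58, 9.97 and 9.77 against 8.74 and 9.24 (0.79; limma, adjusted p = 0.193). Both lay above the controls without overlap, which held for 3 of 11 in the list (17.4% of all genes), with 1 of 11 lower (13.1%). Bcl3 was at 0.22 (0.37 and 0.07 against the controls taken singly), and Maf and Batf, regulators of interleukin-10 and Th17 genes, were at 0.14 and 0.54 and turned to -0.34 and -0.36 against control replicate 2. Il21 was at -0.76 and turned to 0.33 against control replicate 1.

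**Figure D4:**
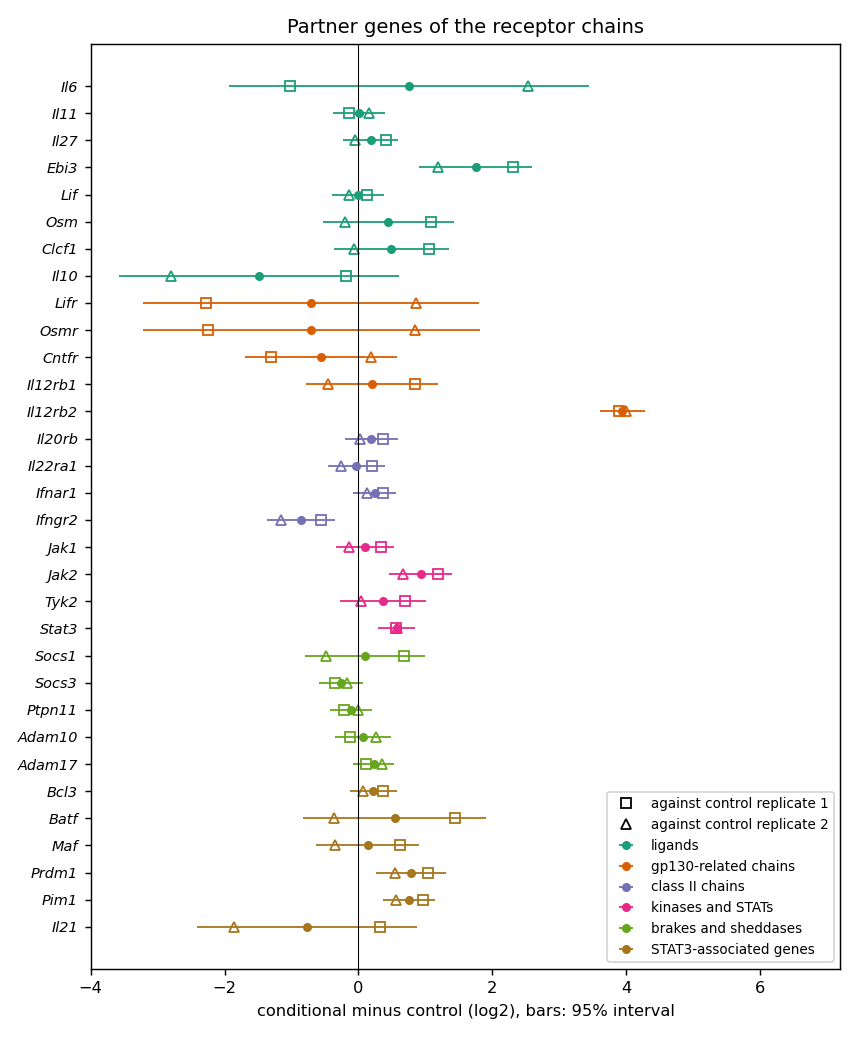
Difference of conditional and control means in log2 units for each named partner gene, with filled circles for the estimate from all 5 arrays, bars for its 95% confidence interval, open squares for the difference from control replicate 1 and open triangles for that from control replicate 2. Il12rb2 stands at 3.94, with both controls giving nearly the same difference, while Il6, Lifr, Osmr and Batf have the controls on either side of 0.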

How the data were processed

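The deposited values are log2 signals of 1 table of 34760 probe sets, which the authors made with RMA (oligo package), per the submitters' processing notes. Tool versions: not given in the sources used here. RMA subtracts background, normalizes the arrays to 1 distribution and summarises probes, which removes global shifts and compresses differences of dim genes. The platform annotation gave 1 symbol for 21640 probe sets, several for 1321 and none for 11799. Each of 19937 genes was represented by its brightest single-symbol probe set (highest mean of the 5 arrays). Precision is limited by the number of arrays, which have no read depth.

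Groups came from the genotype labels. All 5 arrays entered limma (version 3.58.1, R 4.3.3; lmFit and eBayes, no covariate, 3 residual and 2.10 prior degrees of freedom), with Benjamini-Hochberg adjustment over all genes and a threshold of 0.05. The procedure was tested on simulated data with the same scatter on every array, so that test does not cover the differences between the controls seen here. The receptor chains and partner lists were chosen with earlier results of these data known. Named were the 5 chains, 36 fixed partner genes (32 measured here), any other list member past the threshold and the 3 genes most correlated with each chain. The other 4 were not analysed here. Lists were described, not tested. Alternatives were the probe set, filters on dim genes, normalization, a variance trend, array weights, the replicate block, the threshold and each array left out.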

Additional observations from a re-analysis of the deposited data

How the results depend on the processing

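Il6ra and Il6st kept their direction under every alternative run. With 1 probe set each and non-overlapping groups, the probe set rules, filters, variance trend and left-out arrays could not turn that direction. Leaving out 1 array at a time gave -1.89 to -1.54 for Il6ra and -1.60 to -1.16 for Il6st, -1.10 to 1.93 for Il27ra and -0.51 to 1.51 for Il10ra. The replicate numbers were not shown to pair the samples, since deviations of same-numbered arrays correlated at 0.40 for number 1 and -0.29 for number 2. With the number as a replicate block Il6ra was at -1.54 (limma, adjusted p = 0.0971), Il6st at -1.16 and Il11 at -0.056, and the block called none of the 5 chains. Conditional replicate 3 has no control of its number, so the block absorbs it. The block estimates therefore equal those without that array. The number of genes past the threshold was 48 after a second quantile normalization, 13 with array weights, 374 at an adjusted p of 0.10 (with 1 of the chains) and 0 to 5474 with 1 array left out (0 to 4 of the chains). Lif turned to 0.066 after the second quantile normalization, 0.087 after median centring and 0.024 with array weights, and Il22ra1 to 0.037 and 0.064 under the first and second of these.

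Left-out arrays turned further partner genes. The ranges were -1.02 to 2.53 for Il6, -0.15 to 0.16 for Il11, -0.044 to 0.41 for Il27, -0.14 to 0.13 for Lif, -0.20 to 1.09 for Osm and -0.067 to 1.05 for Clcf1. They were -2.28 to 0.86 for Lifr, -2.25 to 0.84 for Osmr, -1.30 to 0.18 for Cntfr, -0.45 to 0.85 for Il12rb1, -0.26 to 0.20 for Il22ra1, -0.14 to 0.33 for Jak1, -0.48 to 0.68 for Socs1 and -0.12 to 0.26 for Adam10. Batf ranged from -0.36 to 1.44, Maf from -0.34 to 0.62 and Il21 from -1.85 to 0.33. Of 32 partner genes, 11 turned without control replicate 1 and 6 without control replicate 2.

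List medians ranged from -0.024 to 0.20 for ligands, -0.004 to 0.84 for gp130-related chains, 0.018 to 0.22 for class II chains, 0.31 to 0.63 for kinases and STATs, 0.15 to 0.28 for brakes and -0.35 to 0.61 for STAT3-associated genes. Above the median level the ligand median was 0.49 and that of gp130-related chains -0.56 (-0.18 above the lower quartile), with fewer genes in each list. Median centring moved all genes by 0.09 and gave the brakes 0.26. The cause of the other shifts was not tested.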
